A study of Homo sapiens with 12 samples.

Results

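Spectrins were represented by 5 genes, SPTAN1, SPTB, SPTBN1, SPTBN4 and SPTBN5, of the 20503 genes that had at least 1 named probe, and by 10 of the 50599 probes on the arrays. The members were all probes whose RefSeq transcript belongs to one of these 5 genes. This rule for probes uses no measured value, but the genes were chosen with earlier results of these data known. SPTAN1, SPTB and SPTBN1 had 2 probes each, SPTBN4 had 3 and SPTBN5 had 1. Total RNA was measured on 12 single-colour Agilent arrays from HA22T and PLC5, established hepatocellular carcinoma cell lines, transfected with Lipofectamine RNAiMAX and 10 nM of a non-targeting siRNA (siControl) or of siRNA against GALNT1 (siGALNT1), an enzyme that starts mucin-type O-glycosylation. The 4 groups, siControl and siGALNT1 in either line, comprised 3 arrays each, all from cells taken 48 h after transfection. Knockdown was transient, in established lines, and nothing in the labels says that the 3 samples of a group came from separate cultures, so p-values measure only the spread between these samples. Each array measured a whole culture, in which fewer expressing cells and less RNA per cell cannot be told apart.

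Spectrins are long, flexible proteins that form a mesh under the plasma membrane. An alpha chain pairs with a beta chain, such pairs join head to head into tetramers, and these cross-link short actin filaments and bind membrane proteins through ankyrins. SPTAN1 encodes the alpha chain used outside red blood cells, SPTB the beta chain of red blood cells and muscle, SPTBN1 the most widely expressed beta chain, which is also known as an adaptor of TGF-beta signalling in liver, SPTBN4 a beta chain best known from axons, and SPTBN5 a much larger beta chain of epithelial and sensory cells.

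SPTAN1 and SPTBN1 were the spectrins with probes that were brighter on every HA22T array than on any PLC5 array, so the sequence just upstream of their annotated starts is shown, and both starts of SPTBN1 are shown because its probes were named for different transcripts and only 1 of them was counted. Each line gives the 250 bases before a start on the gene's strand, 5′ to 3′, from RefSeq on GRCh38.p14, and capitals mark GGGCGG on either strand, the core of the GC box bound by Sp1-type factors. The table of starts does not pair them with transcripts.
SPTAN1, chr9:128552337-128552586, plus strand: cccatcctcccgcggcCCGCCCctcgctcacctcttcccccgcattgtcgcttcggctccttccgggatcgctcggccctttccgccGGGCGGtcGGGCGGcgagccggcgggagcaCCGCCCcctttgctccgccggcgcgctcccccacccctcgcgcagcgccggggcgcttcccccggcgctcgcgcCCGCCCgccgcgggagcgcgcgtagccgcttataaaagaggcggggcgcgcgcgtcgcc
SPTBN1 first start, chr2:54456077-54456326, plus strand: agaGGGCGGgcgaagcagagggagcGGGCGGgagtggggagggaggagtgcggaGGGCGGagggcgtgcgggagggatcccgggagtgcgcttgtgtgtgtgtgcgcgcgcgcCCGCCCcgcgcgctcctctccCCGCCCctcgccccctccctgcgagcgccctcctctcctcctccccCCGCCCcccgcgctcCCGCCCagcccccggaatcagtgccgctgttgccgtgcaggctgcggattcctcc
SPTBN1 second start, chr2:54558133-54558382, plus strand: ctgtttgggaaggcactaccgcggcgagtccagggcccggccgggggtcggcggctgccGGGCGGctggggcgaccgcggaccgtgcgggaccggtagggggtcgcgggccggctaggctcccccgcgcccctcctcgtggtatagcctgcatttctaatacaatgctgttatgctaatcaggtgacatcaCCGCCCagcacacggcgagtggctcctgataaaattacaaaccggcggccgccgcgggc
GGGCGG occurred 5 times before SPTAN1, 7 times before the first start of SPTBN1 and 2 times before the second. At least 1 match was present in 42.6% of the 35116 windows of the same length in the table. TATAAA, searched on either strand, was found 1 time before SPTAN1 and at neither start of SPTBN1, against 10.7% of all windows. These are matches of letters only.

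Levels are given as log2 of the background-subtracted signal minus the array's 75th percentile, so 0 is a probe as bright as the 75th percentile of its array. A probe was counted in a comparison when it stood well above background, by the scanner software's own test, on at least 3 of the 6 arrays compared. The call rules were a Benjamini-Hochberg adjusted p below 0.05 over all counted probes, and the criterion of the study's methods, a fold change of at least 1.5 with an unadjusted p below 0.05. All p-values are from limma unless another test is named. Probes bind with different strength, so levels are compared between groups for a probe and never between probes.

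The arrays had 36679 to 48873 of 58717 spots well above background, no spot was saturated, and 489 to 3633 spots were flagged as non-uniform and left out. Both GALNT1 probes were lower with siGALNT1, with log2 changes of −4.75 and −5.10 in HA22T and −3.03 and −3.72 in PLC5. The limma adjusted p was 0.0305 and 0.0708 in HA22T and near 1 for both probes in PLC5. The adjusted threshold therefore missed the targeted gene itself in PLC5. In HA22T siGALNT1 the probes were well above background on 1 and 2 of 3 arrays. All 7 hepatocyte markers were lower in HA22T than in PLC5 with siControl, with a median log2 difference of −5.03. In HA22T SERPINA1, APOA1 and HNF4A were still well above background on all 6 arrays, with means of −0.02, −0.42 and −0.85 for the brightest probe of each, whereas TTR was so on 1 of 6 arrays and TF on 2. Markers of other cell types were not uniformly dark. All 3 probes of PECAM1, an endothelial gene, were well above background on all 6 PLC5 arrays, with means of 2.17, 0.79 and −0.59. Their means in HA22T were −3.50, −5.08 and −6.43. Of 5 neuron markers 2 were higher and 2 lower in HA22T with siControl at an adjusted p below 0.05. The 4 probes of PTPRC, a leukocyte gene, ranged in HA22T from a mean of −7.18, well above background on 0 of 6 arrays, to 5.33 on all 6 arrays. Whether the bright probe reports the transcript of that gene was not tested. One slide held all 6 HA22T arrays and replicate 1 of both PLC5 groups, and another held the other 4 PLC5 arrays, so values with the slide as a block are given beside the line comparisons, and those within the first slide for SPTAN1 and SPTBN1.

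SPTAN1, the alpha chain, was well above background on all 12 arrays with both probes, and its siRNA groups overlapped in both lines. For the probe named for NM_001130438 the HA22T siControl arrays gave 5.16, 4.88 and 4.79 and the HA22T siGALNT1 arrays 5.30, 4.60 and 4.70. PLC5 gave 4.47, 4.26 and 3.95 with siControl and 4.31, 4.04 and 4.08 with siGALNT1. Every HA22T array lay above every PLC5 array. The change with siGALNT1 was −0.07 log2 units in HA22T (SE 0.26, 95% interval −0.65 to 0.50) and −0.08 in PLC5 (95% interval −0.66 to 0.50). The second probe, named for NM_003127, changed by −0.08 in HA22T and −0.02 in PLC5.

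Between the lines, the first SPTAN1 probe was 0.72 log2 units higher in HA22T with siControl (1.65-fold, SE 0.26, 95% interval 0.14 to 1.30) and 0.73 higher with siGALNT1. The adjusted p was 0.0763 and 0.0702, just short of the threshold. The second probe was higher by 0.82 (adjusted p = 0.061) and 0.76 (adjusted p = 0.0770). Its HA22T arrays ran from 0.90 to 1.495 and its PLC5 arrays from −0.02 to 0.64, with no overlap. With the slide as a block the differences of the 2 probes were 0.51 and 0.48 with siControl and 0.52 and 0.42 with siGALNT1, with adjusted p from 0.257 to 0.349. Within the first slide, against its single PLC5 array per treatment, they were 0.48 and 0.49 with siControl and 0.56 and 0.41 with siGALNT1. Several other settings brought the first probe under the threshold, among them an intensity trend in the variance (adjusted p = 0.0393 with siControl and 0.0356 with siGALNT1).

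**Figure D1:**
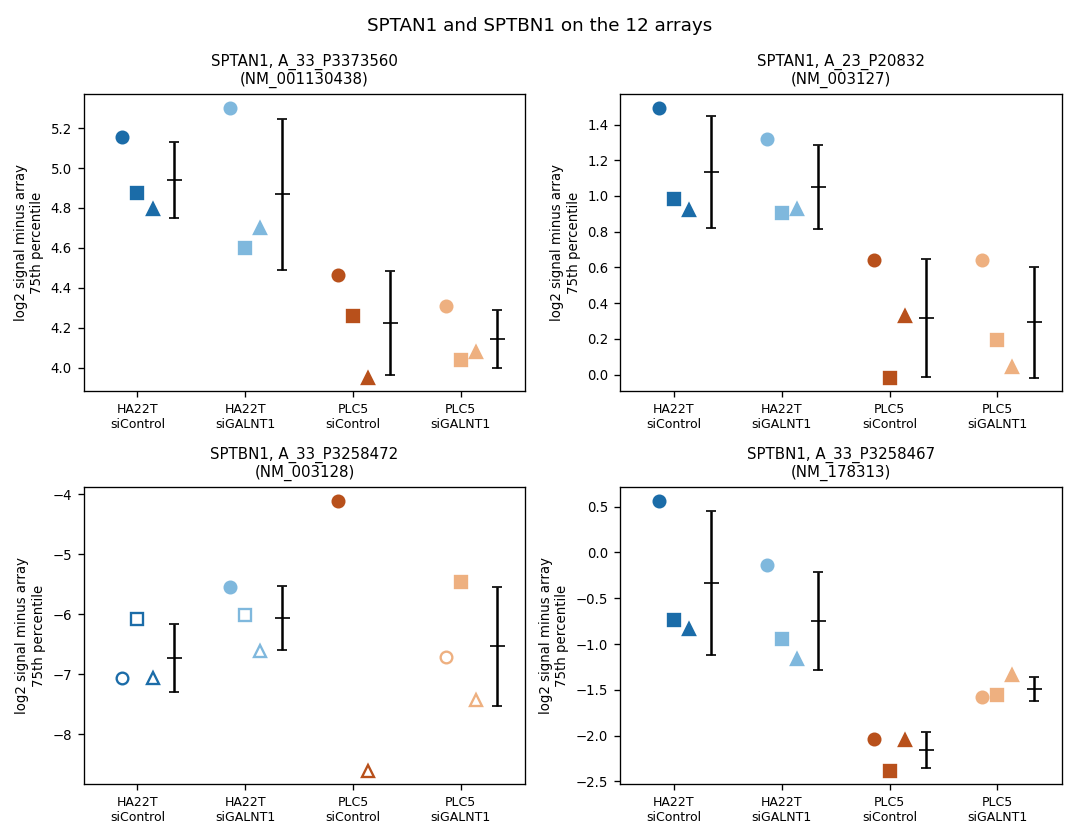
Log2 signal minus the array's 75th percentile for both probes of SPTAN1 and of SPTBN1 on the 12 arrays. Circles, squares and triangles are replicates 1, 2 and 3, open symbols are arrays where the probe was not well above background, and bars give mean ± SD where all 3 values exist. HA22T lies above PLC5 on every array for both SPTAN1 probes and for the SPTBN1 probe named for NM_178313, while the other SPTBN1 probe is mostly dim.

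SPTB, the beta chain of red blood cells and muscle, was well above background with both probes wherever it was measured, and did not pass a test in any comparison. For the first probe, of NM_001024858, HA22T siControl gave 0.33, 0.66 and 0.45, and of HA22T siGALNT1 replicate 3 alone had a value, 0.31, since the spots of the other 2 arrays were flagged. PLC5 gave 0.16, 1.04 and 0.69 with siControl and 0.93, 0.05 and 1.38 with siGALNT1, so the groups of that line overlapped widely. The fitted change was −0.18 in HA22T, resting on that lone siGALNT1 array, and 0.15 in PLC5. The second probe, of the same transcript, changed by −0.27 in HA22T (95% interval −0.97 to 0.43) and 0.18 in PLC5 (95% interval −0.52 to 0.88). Between the lines with siControl the probes differed in sign, −0.15 and 0.15, each within its spread, and with the slide as a block they were at 0.01 and 0.52. With siGALNT1 they were at −0.48 and −0.29, and at −0.32 and 0.07 with the block, none past a test.

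SPTBN1, the widely expressed beta chain, showed the largest difference between the lines with siControl among the counted spectrin probes. For the probe named for NM_178313 the HA22T siControl arrays gave 0.57, −0.74 and −0.83, and the PLC5 siControl arrays −2.04, −2.39 and −2.05. With siGALNT1 HA22T gave −0.14, −0.95 and −1.16 and PLC5 −1.57, −1.55 and −1.34. HA22T lay above PLC5 on every array of either treatment, and replicate 1 was the highest array of each HA22T group. With siControl the difference was 1.82 log2 units (3.54-fold, SE 0.39, 95% interval 0.97 to 2.68, adjusted p = 0.00563), and the difference was 1.80 with the slide as a block (adjusted p = 0.0289) and 1.70 within the first slide. Without HA22T siControl replicate 1 it was 1.37 (adjusted p = 0.0153). The methods' t-test gave an adjusted p of 0.0793. With siGALNT1 the difference was 0.74 (95% interval −0.11 to 1.60, adjusted p = 0.199), and 0.72 with the slide as a block.

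In PLC5 the same probe was 0.67 log2 units higher with siGALNT1, with a 95% interval of −0.19 to 1.52, and the groups did not overlap. The exact two-sided permutation test gave p = 0.1, the smallest p that 3 against 3 arrays allow. In limma the unadjusted p was 0.114, whereas the methods' t-test gave 0.00799, a fit of PLC5 alone 0.0347, the replicate number as a block 0.0169 and the fit without HA22T siControl replicate 1 0.0446, so that the criterion was met in these and the adjusted p was near 1 in all. In HA22T the change was −0.41 (95% interval −1.27 to 0.44) with overlapping groups, and 0.04 without HA22T siControl replicate 1. The difference between the 2 changes was −1.08 (95% interval −2.29 to 0.13, adjusted p = 0.988), so a different response of the lines was not shown. The probe named for NM_003128 was well above background on none of the 3 siControl and 1 of the 3 siGALNT1 arrays of HA22T. In PLC5 this held for 1 of 2 measured siControl arrays and 1 of 3 siGALNT1 arrays, so the probe was not counted and allowed no fold.

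SPTBN4, the beta chain known from axons, gave values that depended on the probe. The probe of NM_025213 was dim, at −4.82 ± 0.66 with siControl and −5.10 ± 0.54 with siGALNT1 in HA22T (SD, n = 3 each). In PLC5 it was at −4.52 ± 0.55 and −4.67 ± 0.37. Its change was −0.28 in HA22T (95% interval −1.20 to 0.64) and −0.15 in PLC5 (95% interval −1.07 to 0.77), and the groups overlapped. Of the probes of NM_020971, the dim A_24_P293114 gave −7.99, −8.45 and −7.10 in HA22T siControl and −5.81, −6.33 and −6.58 in HA22T siGALNT1. Those groups did not overlap, but the probe stood above background on 0 and 1 of those arrays, so it was not counted and gave no bound on a fold. In PLC5 it changed by 0.27 (95% interval −0.80 to 1.34), with 3 of 6 arrays well above background.

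The bright SPTBN4 probe, A_33_P3401459, was flagged as non-uniform on 5 of the 6 HA22T arrays and on 1 PLC5 array. PLC5 gave 1.04, 1.70 and 1.05 with siControl and 0.79 and 1.05 with siGALNT1, a change of −0.35 (95% interval −1.21 to 0.52). The only HA22T value was 0.15, in siControl replicate 1, which was lower than every PLC5 value. The fitted difference from the 3 PLC5 siControl arrays was −1.12, a comparison with a lone array that is assumed to vary like the other groups (adjusted p = 0.144), and −0.92 with the slide as a block. The dim probe of NM_025213 differed between the lines by −0.30 with siControl and −0.43 with siGALNT1, and by −0.20 and −0.33 with the block.

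SPTBN5, the large beta chain, was well above background on all 12 arrays and overlapped between all groups. Its values were −1.90, −0.87 and −1.65 in HA22T siControl and −1.29, −0.99 and −1.36 in HA22T siGALNT1. PLC5 gave −1.73, −0.93 and −1.13 with siControl and −1.78, −1.66 and −0.91 with siGALNT1. The change with siGALNT1 was 0.26 in HA22T (95% interval −0.51 to 1.03) and −0.19 in PLC5 (95% interval −0.96 to 0.59). The lines differed by −0.21 with siControl and 0.23 with siGALNT1, and by 0.18 and 0.63 with the slide as a block, none past a test.

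**Figure D2:**
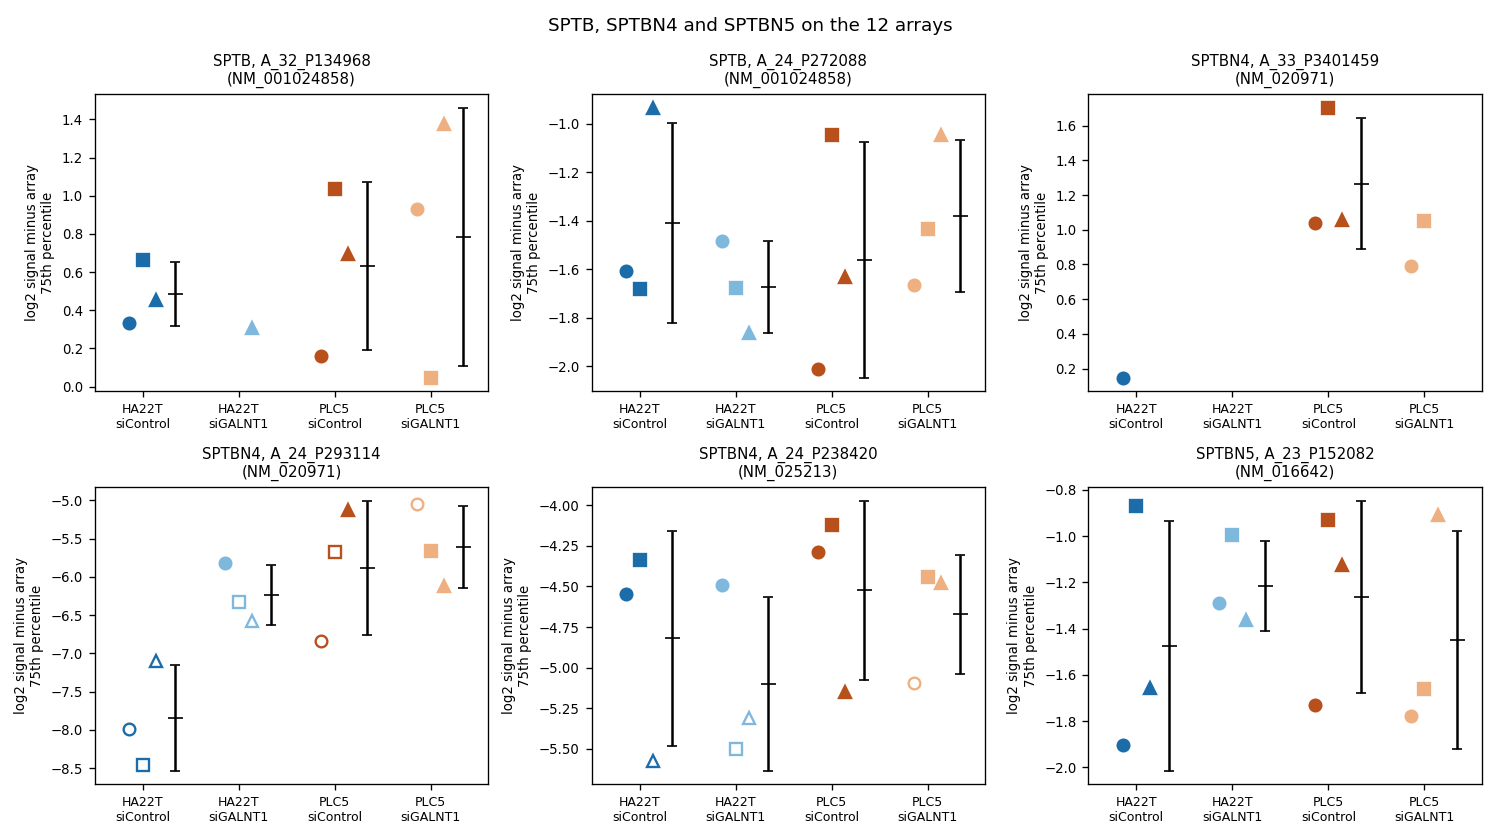
Log2 signal minus the array's 75th percentile for the probes of SPTB, SPTBN4 and SPTBN5 on the 12 arrays, with symbols and bars as for SPTAN1 and SPTBN1. Missing points are flagged spots, and the groups overlap in all panels except where few values remain or, for SPTBN4 A_24_P293114, where HA22T siControl is not well above background.

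Over the family, 7 of the 10 spectrin probes were counted in HA22T and 9 in PLC5, covering all 5 genes. With the p from limma none met the criterion of the methods in either line. Of all counted probes 2.87% of 36327 met it in HA22T and 1.29% of 38070 in PLC5. With the methods' own test in place of limma, the SPTBN1 probe met it in PLC5 and no spectrin probe did in HA22T. The study lists SPTBN1 as higher in PLC5 after knockdown, among the genes it chose for RT-PCR. In limma no spectrin probe passed the adjusted threshold. Of all probes 1 (0.00275%) passed it in HA22T and 0 (0%) in PLC5, while 1086 and 508 had an unadjusted p below 0.05. The 1 probe was of GALNT1, whose lower signal in PLC5 did not pass, so this threshold cannot show that a spectrin was unchanged. The change of no spectrin probe differed between the lines at an adjusted p below 0.05, nor did that of any of the 39100 probes tested (0%), of which 952 had an unadjusted p below 0.05. The median change of the counted spectrin probes was −0.18 in HA22T and −0.02 in PLC5, beside −0.06 and 0.01 over all probes. Groups did not overlap for 0 of 6 spectrin probes with full arrays in HA22T and 1 of 8 in PLC5, against 8.83% and 4.11% of all probes.

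**Figure D3:**
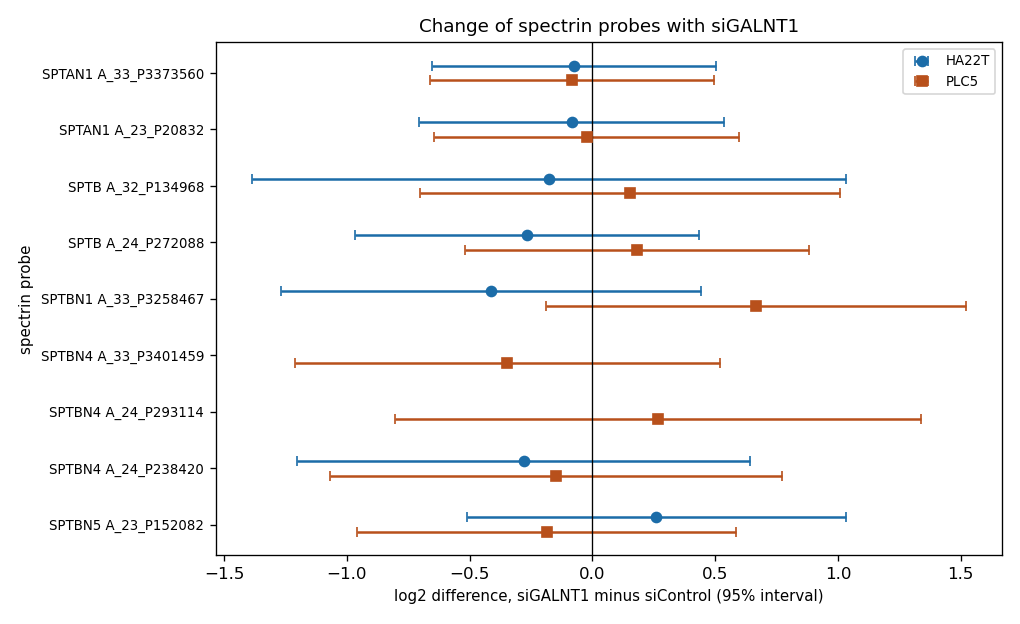
Log2 difference, siGALNT1 minus siControl, of each counted spectrin probe in HA22T (circles) and PLC5 (squares) with limma's 95% interval. Every interval includes 0, and the SPTBN1 probe lies at −0.41 in HA22T and 0.67 in PLC5.

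Between the lines, 8 spectrin probes were counted with each treatment. With siControl 1 of them, of SPTBN1, passed the adjusted threshold, against 22% of 38011 probes, and with siGALNT1 0 did, against 22.9% of 36741. Groups did not overlap for 3 of 7 probes with full arrays in each comparison, the same 3 of SPTAN1 and SPTBN1 and higher in HA22T, while 42.3% and 39.9% of all probes did not overlap, so this count is close to that of the array as a whole. The median spectrin difference was 0.00 and −0.03, beside 0.04 and 0.10 over all probes. The comparisons use different arrays, but the same lines and slides.

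**Figure D4:**
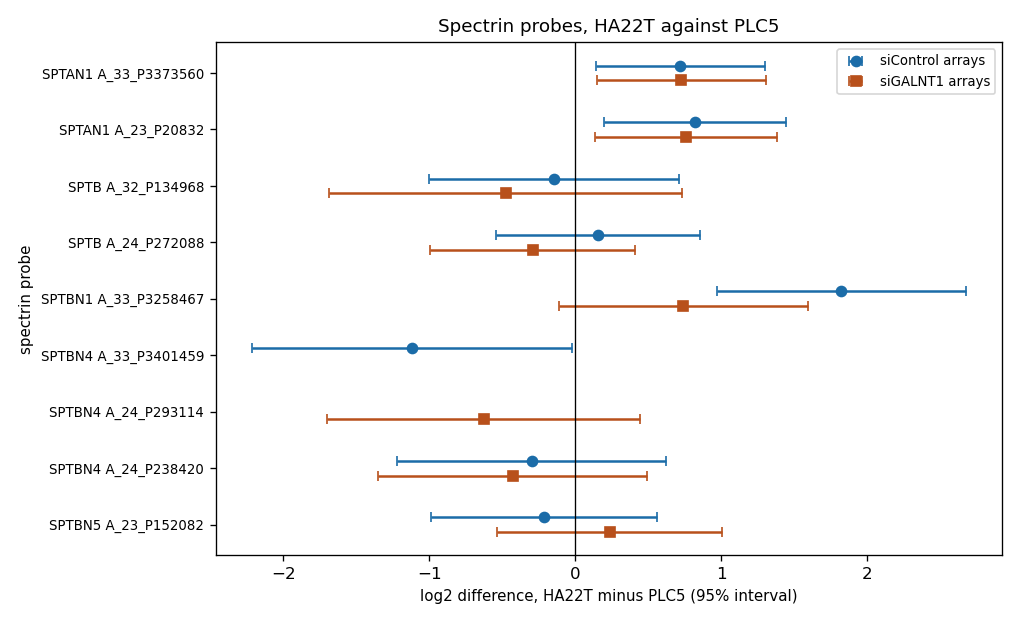
Log2 difference, HA22T minus PLC5, of each counted spectrin probe on siControl arrays (circles) and siGALNT1 arrays (squares) with limma's 95% interval. Both SPTAN1 probes and the SPTBN1 probe lie to the right of 0, and the interval of SPTBN1 with siGALNT1 includes 0. The SPTBN4 probe A_33_P3401459 lies to the left, at −1.12 on siControl arrays, where its value rests on a lone HA22T array.

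Of 36 genes that work with spectrins, each read by its brightest probe with a value in every group, 35 were counted in each siRNA comparison and 0 met the criterion in either line, with a median of −0.15 in HA22T and 0.07 in PLC5. Between the lines with siControl 7 of 36 were higher and 4 lower in HA22T at an adjusted p below 0.05, and with siGALNT1 6 and 4 of 35, against 22% and 22.9% of all probes. With the slide as a block 6 were higher and 3 lower with siControl, and 4 and 4 with siGALNT1. Counted over every probe of a gene, 14 and 13 genes had a called probe. The shares above are per probe and genes with more probes have more chances to be called, so these counts cannot be read against them. Examples chosen after their values were seen are DMTN, an actin-bundling protein, at −4.75 and −4.12 with its dimmer probe, and EPB41L1, of the protein 4.1 family, at −2.04 and −2.08, while their brightest probes did not pass. Of the 5 genes for proteases that cut alpha spectrin and their regulators, 3 were higher in HA22T and 1 was lower with siControl. CAPN2, a calpain, was higher in HA22T by 2.26 with siControl and 1.93 with siGALNT1, and CAST, the calpain inhibitor, by 1.66 and 0.99 (with the slide as a block, adjusted p = 0.0632 with siGALNT1), whereas CAPN1 was lower, at −1.03 and −1.18.

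At the actin junction, the filament-capping TMOD1 was higher in HA22T by 1.95 and 1.85 and TMOD3 by 1.55 and 1.42, while the brightest probes of the 7 other genes of that list did not pass. Among the proteins that tie spectrin to the membrane, ANK2 was lower, at −0.98 (with the slide as a block −0.79, adjusted p = 0.15) and −1.39, and EPB41L3, of the protein 4.1 family, was at least 4.92-fold higher in PLC5 with siControl and at least 3.30-fold with siGALNT1, since it was well above background on 0 of 6 HA22T arrays. CAMSAP3, which binds microtubule minus ends and spectrin, was lower at −1.64 and −1.48, and its relative CAMSAP2 was higher by 1.11 with siControl (with the slide as a block 0.99, adjusted p = 0.0993). SMAD3, the TGF-beta effector that SPTBN1 binds, was higher by 1.02 with siControl (adjusted p = 0.0337, and 0.0649 with the slide as a block) and by 0.88 with siGALNT1 (adjusted p = 0.06).

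The genes most like SPTAN1 over the 12 arrays, by the root mean square difference of centred log2 values among 12305 genes, were CCNB3 at 0.10, TUSC1 at 0.10 and KRTAP4-12 at 0.10, where the median gene was at 0.52 and SPTAN1 itself had an SD of 0.42. For SPTBN1 they were CTSL at 0.26, NAV2 at 0.26 and ABL2 at 0.27, with a median gene at 0.82 and an SD of 0.80. The arrays share lines and slides, so this likeness is a description of profiles only.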

How the data were processed

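Intensity values were those deposited by the authors, background-subtracted signals that Agilent Feature Extraction (version 10.5.1.1, per the file headers) had written for each of 58717 spots, on an array designed for hg19. The log2 table also deposited by the authors served as an alternative, and its exact scaling was not given in the sources used here. Here log2 of the signal minus the 75th percentile of the array's non-control spots was taken, non-uniform spots were left out as in the study's methods, and spots of a probe were averaged. Probes were named through the RefSeq accession of the array files, which named 28174 of 50599. Group means of all 12 arrays were fitted in limma (version 3.58.1, R 4.3.3) with empirical Bayes and Benjamini-Hochberg adjustment, and the script was tested on simulated data. The precision is limited by 3 arrays per group. The 36 partner genes came from a list of binding partners, regulators and proteases, of which up to 10 called genes per comparison were named, by size, and single genes of the lists that are not named are not reported here. Members and lists were chosen with earlier results of these data known. In HA22T the deviations of same-numbered arrays correlated (0.532, 0.264 and 0.34), which came from the values, while in PLC5 they did so less (0.571, 0.0373 and 0.182). The 14 alternatives covered background, scaling, filters, flagged spots, slide, pairing, spread, test, probe averaging and left-out arrays, and 3 more were added after seeing the data.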

Additional observations from a re-analysis of the deposited data

Results flagged for a closer look

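The bright SPTBN4 probe A_33_P3401459 was left out on 5 of 6 HA22T arrays as non-uniform, and the flagged values themselves differed between the groups. With these spots kept, HA22T siControl gave 0.15, 0.98 and 0.65 and HA22T siGALNT1 gave 1.30, 1.52 and 1.404, so every siGALNT1 array lay above every siControl array, by 0.815 log2 units on average (limma unadjusted p = 0.0154, adjusted p = 0.998). The flag covered all 3 siGALNT1 arrays and 2 of the siControl arrays. The part of spot quality in this difference was not tested.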

How the results depend on the processing

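The count of spectrin probes past the criterion in HA22T, 0, was 1 without a filter on dim probes and 1 with non-uniform spots kept, both of SPTBN4. Over all probes these settings gave 1959 of 49607 and 1189 of 37654, beside 1043 of 36327 in the main fit. In PLC5 the count was 1 in place of 0, of SPTBN1, with each line fitted alone, the Student t-test and the replicate block. When single arrays were left out it was 0 to 1, and 1 only without HA22T siControl replicate 1. Over all 38070 counted probes these settings gave 466, 325, 818 and 511, beside 492 in the main fit. Spectrin probes that differed between the lines with siControl numbered 1, and 3 with the replicate block, an intensity trend, a 75th percentile over unflagged spots or array weights. They numbered 2 with normexp, no dim filter or centring on probes measured on all arrays, and 0 with the Student t-test. Over all 38011 counted probes the main fit called 8368. The replicate block called 9265 of them, the trend 9661, the unflagged percentile 8577 and array weights 16983. Normexp called 8467, the centring 8535 and the t-test 6330, and without the dim filter it was 8526 of 50245. With siGALNT1 the count of 0 became 2 with the replicate block, the trend, the unflagged percentile and the centring. Over all 36741 counted probes these settings called 9164, 10105, 9285 and 8751, beside 8407 in the main fit. No alternative gave a spectrin probe whose change differed between the lines. The t-test and the fits of each line alone gave no value for that difference, and averaging all probes of a gene gave no counts. The percentile, centring and array weights were alternatives added once values had been seen, and the estimation of array weights stopped before it converged. The percentile over unflagged spots moved the median of all probes in HA22T from −0.06 to 0.06 and between the lines with siGALNT1 from 0.10 to 0.32, and there the share of adjusted calls that were higher in HA22T from 42.8% to 59.2%.

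Within the lines, the replicate block was justified by the values in HA22T only. Between the lines it matched same-numbered arrays of HA22T and PLC5. Their deviations correlated at 0.229, 0.253 and −0.045 with siControl and at 0.0706, 0.0225 and −0.186 with siGALNT1. The values thus gave this block little ground, least with siGALNT1. With it the brighter SPTAN1 probe had a limma adjusted p of 0.032 between the lines with siControl and 0.0308 with siGALNT1. The mean over both SPTBN1 probes lowered its line difference with siControl to 0.67 (adjusted p = 0.493), a mean that takes in a probe well above background on 0 of 3 HA22T siControl arrays, so that it was drawn towards background.

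Signs turned only for changes that passed no test. Except where a mean of probes is named, each gene was read by its brightest probe with a value in every group. For SPTBN4 that was the dim probe of NM_025213. For SPTAN1 in HA22T the change was 0.11 with normexp and 0.050 with the unflagged percentile, and in PLC5 0.14 with array weights. Its difference between the lines, 0.01, was −0.056 with quantile normalization, −0.066 with median scaling, −0.018 with the deposited table, −0.25 with array weights and −0.026 over the mean of probes. SPTB changed by 0.081 in HA22T with flagged spots kept, and its line difference with siControl was 0.013 with the slide block and 0.0036 over the mean of probes. SPTBN1 changed by 0.13 in HA22T over the mean of probes. With normexp SPTBN4 changed by 0.13 in HA22T, its difference between the lines was 0.15 and its line difference with siGALNT1 0.061, and with array weights it changed by 0.28 in PLC5. SPTBN5 differed between the lines with siControl by 0.18 with the slide block.

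Leaving out single arrays turned the sign within these ranges. SPTAN1 changed by −0.29 to 0.060 in HA22T and −0.22 to 0.039 in PLC5, and the difference was −0.21 to 0.15. SPTB changed by −0.14 to 0.52 in PLC5, and its line difference with siControl was −0.38 to 0.055. SPTBN1 changed by −0.72 to 0.037 in HA22T. The dim SPTBN4 probe of NM_025213 changed by −0.46 to 0.063 in PLC5, its difference was −0.51 to 0.18 and its line difference with siControl −0.61 to 0.081. SPTBN5 differed between the lines with siControl by −0.52 to 0.00035.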
